A study of Mus musculus with 6 samples.

Results

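ATF3 occupancy was examined at 41 genes of the endoplasmic reticulum (ER) and integrated stress responses in mouse bone marrow-derived macrophages (BMDMs), a primary culture in which the growth factor M-CSF turns marrow cells into macrophages. A peak belonged to a gene when the deposited annotation gave that gene as the one with the nearest start site. Chosen in this way, 13 of the 41 genes had a peak in at least one of 6 peak lists and 28 had none. They held 59 of 16759 peaks, and 4908 genes were named in all. The lists came from 6 ChIP-seq libraries, 1 from WT (Atf3 +/+) and 1 from KO (Atf3 -/-) C57BL/6 BMDMs in each of 3 conditions. Cells were unstimulated, received HDL, a cholesterol-carrying lipoprotein, at 2 mg/ml for 6 h, or received that HDL treatment and then CpG, a DNA ligand of a Toll-like receptor, at 100 nM for 4 h. Mice were 6 to 8 weeks old, the culture lasted 6 days with 40 ng/ml M-CSF, and all 6 precipitations used 2.5 µg of the same rabbit polyclonal antibody against ATF3. KO marrow came from ATF3-deficient mice, so KO cells lacked ATF3 throughout the culture and not only at the time of stimulation. Each library is a pool of 3 biological replicates, as the labels and methods give it. No spread between mice or cultures could therefore be computed, and every interval and test here covers counting error in a pair of libraries only.

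In each condition a standard list holds peaks called on the WT library alone. A KOIN-corrected list holds peaks called with the KO library as control, without peaks shared with KO and without peaks under a WT/KO tag ratio of 2. Tags are reads in the peak scaled by the authors to 10000000 reads per library. They were counted within the peak bounds of each list, and these bounds differ between conditions. WT and KO libraries held 37137377 and 75534584 reads in unstimulated cells, 37930363 and 66061648 with HDL, and 49467421 and 47504605 with HDL + CpG. A standard peak held a median of 43 (unstimulated and HDL) or 53 (HDL + CpG) WT reads.

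When unfolded proteins build up in the ER, the sensors PERK, IRE1 and ATF6 start the unfolded protein response. PERK phosphorylates the translation factor eIF2 alpha, as do the related kinases GCN2 and PKR, which respond to amino acid shortage and to double-stranded RNA, and this shared branch is called the integrated stress response. Its main effector ATF4 binds C/EBP-ATF response elements, written here as TGATGCAA, and induces ATF3, a basic leucine zipper (bZIP) factor of the same family that binds the AP-1 letters TGAGTCA and the CRE letters TGACGTCA. The ATF6 and XBP1 branch instead acts through ER stress response elements (ERSE, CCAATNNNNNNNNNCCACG, and ERSE-II, ATTGGNCCACG) in the promoters of chaperone genes.

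Peaks at stress genes lay at distances from 0.013 to 1742 kb from a start site. The 59 peaks formed 24 separate loci, of which 7 lay within 1 kb of a start site, 1 at each of 7 genes. These were Ppp1r15a, Ppp1r15b, Trib1, Trib3, Nupr1, Herpud1 and Chac1. At 6 of those 7 a KOIN-corrected peak was present within 1 kb in at least one condition, the exception being Ppp1r15a, and the same held for 301 of 434 other genes (69.4%). Of the 14 loci beyond 10 kb, 9 lay more than 100 kb away, and each of these 9 was on a repeat in at least one condition by the authors' annotation. At any distance, 45.5%, 45% and 38.5% of standard peaks of stress genes were on repeats in unstimulated, HDL and HDL + CpG cells. The shares of all other standard peaks were 60.6%, 47% and 50.1%. Among standard peaks of stress genes, 27.3%, 30.0% and 23.1% were centred within 1 kb of a start site in unstimulated, HDL and HDL + CpG cells, beside 3.72%, 5.76% and 5.27% of all other standard peaks.

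**Figure D1:**
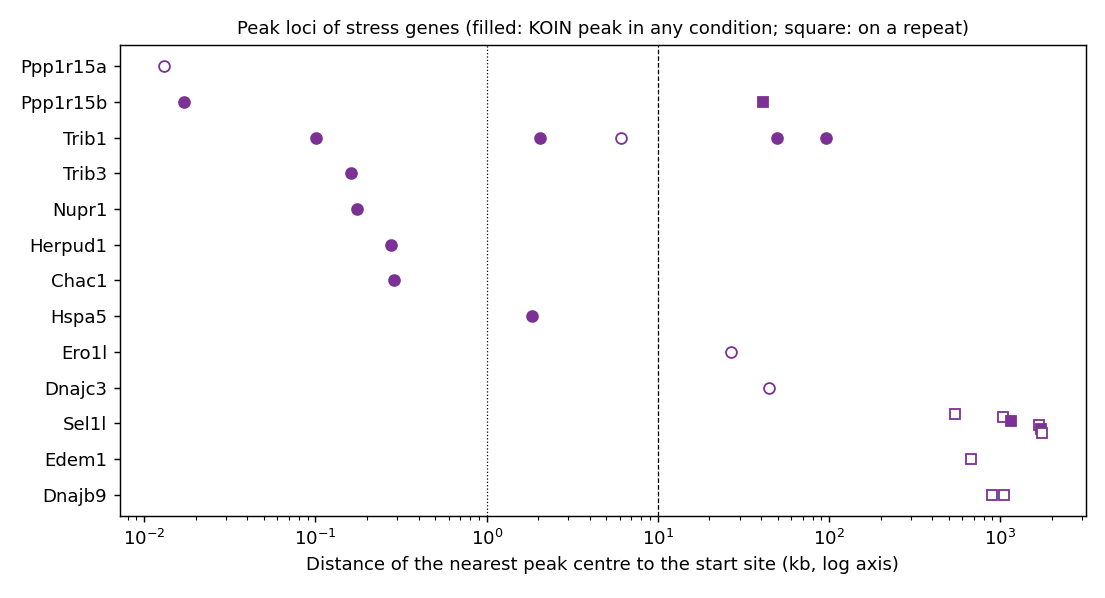
Distance in kb (log axis) from the start site to the nearest peak centre of each of the 24 loci, by gene, with filled symbols where a KOIN-corrected peak was present in any condition and squares where the authors' annotation names a repeat in any condition. The 7 loci within 1 kb (left of the dotted line) belong to 7 genes, whereas Sel1l, Edem1 and Dnajb9 have loci only beyond 100 kb; small vertical shifts separate the 6 Sel1l loci.

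The DNA under these peaks is shown for the genes whose peaks held any of the letters above, to place the letters of ATF4, AP-1 and CRE elements within the peaks. All stretches are plus-strand NCBIM37 (mm9) sequence, and capitals mark TGATGCAA, TGAGTCA, TGACGTCA or ERSE-II in either direction, so TTGCATCA and TGACTCA are the reverse complements. TGATGCAA was found in peaks of 6 genes, Ppp1r15b (chr1:135027643-135027719), Nupr1 (chr7:133769076-133769105), Chac1 (chr2:119176745-119176832), Herpud1 (chr8:96910177-96910327, with ERSE-II 3′ of it), Hspa5 (chr2:34625689-34625871, in 2 copies with 1 TGAGTCA) and Ero1l (chr14:45911370-45911457).
Ppp1r15b: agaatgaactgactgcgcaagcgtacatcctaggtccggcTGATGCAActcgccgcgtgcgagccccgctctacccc
Nupr1: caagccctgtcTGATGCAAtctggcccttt
Chac1: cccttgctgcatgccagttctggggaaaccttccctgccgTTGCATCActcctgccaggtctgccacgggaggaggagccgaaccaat
Herpud1: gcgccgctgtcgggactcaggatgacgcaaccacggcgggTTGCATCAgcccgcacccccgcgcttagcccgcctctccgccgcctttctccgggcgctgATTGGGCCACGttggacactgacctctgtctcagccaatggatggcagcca
Hspa5: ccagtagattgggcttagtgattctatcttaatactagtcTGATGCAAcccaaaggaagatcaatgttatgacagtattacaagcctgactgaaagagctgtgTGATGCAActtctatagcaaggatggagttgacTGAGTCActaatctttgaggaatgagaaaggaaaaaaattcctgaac
Ero1l: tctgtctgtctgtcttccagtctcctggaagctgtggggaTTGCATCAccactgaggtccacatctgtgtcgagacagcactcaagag

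The AP-1 and CRE letters lay in peaks of Ppp1r15a (TGACGTCA in chr7:52781639-52781690 and TGAGTCA, reversed, in chr7:52781573-52781601), of Trib1 (TGACGTCA in chr15:59479749-59479836 and TGAGTCA in chr15:59480138-59480166) and, besides Hspa5, of Chac1, whose peak held 2 copies of TGAGTCA in reverse (chr2:119176340-119176466). The Chac1 copies lay 267 and 307 bp from the peak centre. The Trib1 TGACGTCA lay 280 bp (HDL) or 316 bp (HDL + CpG) from it, and the other AP-1 and CRE copies at most 79 bp. By the reference annotation the TGAGTCA copies of Ppp1r15a and Trib1 were in exons.
Ppp1r15a CRE: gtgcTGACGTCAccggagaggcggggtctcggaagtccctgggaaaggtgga
Ppp1r15a AP-1: aaactcagagcTGACTCAatctgcgccaa
Trib1 CRE: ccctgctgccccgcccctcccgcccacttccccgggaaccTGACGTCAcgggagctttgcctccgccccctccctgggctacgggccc
Trib1 AP-1: tgtatacagcgTGAGTCAccgggaggcgg
Chac1 AP-1: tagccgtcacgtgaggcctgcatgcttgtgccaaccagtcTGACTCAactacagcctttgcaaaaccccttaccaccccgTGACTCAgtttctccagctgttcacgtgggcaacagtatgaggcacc

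Counted over whole peaks, TGATGCAA was present in 3 of 11, 4 of 20 and 4 of 13 standard peaks of stress genes in the unstimulated, HDL and HDL + CpG lists. All other standard peaks held it in 5.09%, 5.45% and 4.13% of cases. Within 100 bp of the peak centre the counts were 2 of 11, 2 of 20 and 3 of 13, beside 2.20%, 3.0% and 1.88%, since the Herpud1 and Chac1 copies lay 98 to 156 bp from the centres and so were not fully inside that window. TGAGTCA showed the opposite order in the standard lists. Whole peaks of stress genes held it in 0 of 11, 3 of 20 and 1 of 13 cases, beside 20.4%, 28.1% and 27.9% of the others. In the KOIN-corrected lists it was in 0 of 1, 1 of 9 and 2 of 5 whole peaks, beside 40.6%, 34.3% and 50.9%. Within 100 bp of the centre the KOIN-corrected HDL + CpG count was also 2 of 5, beside 37.5%. Whole standard peaks held TGACGTCA in 0 of 11, 2 of 20 and 0 of 13 cases, beside 0.65%, 1.23% and 1.14%. In the 100 bp window the counts were 0 of 11, 1 of 20 and 0 of 13, beside 0.253%, 0.679% and 0.662%. The counts of stress gene peaks are small and these shares were not tested. The same loci recur across the lists, with TGATGCAA at Ppp1r15b and Herpud1 in all 3 conditions. The other peaks were not matched to those of stress genes for distance from a start. The peaks of Trib3 held none of the letters searched, nor did the Trib1 peaks other than that at the promoter.

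RefSeq promoters (250 bp before to 50 bp after each start, GRCm38.p6) were matched for 35 of the 41 genes. The others were Derl1, Ero1l, Hyou1, Manf and, of the genes with a peak at the start, Ppp1r15b and Trib1, so the promoter counts leave these out. TGATGCAA was in the promoters of Chac1, Herpud1 and Nupr1, although the Nupr1 copy was in an exon by the reference annotation. All 3 genes had a standard and a KOIN-corrected peak within 1 kb of a start. Among all other genes with TGATGCAA in a matched promoter, 13 of 276 had such a standard peak (4.71%), compared with 317 of 26990 genes with any promoter (1.17%). The share was also above 1.17% for other letters, with 18 of 548 for TGACGTCA (3.28%) and 46 of 1606 for TGAGTCA (2.86%). For TGACGTGG, explained below, it was 4 of 193 (2.07%). ERSE was in the promoters of 9 stress genes, namely Calr, Canx, Creld2, Derl3, Dnajc3, Hsp90b1, Hspa5, Pdia6 and Syvn1, and none of the 9 had a peak within 1 kb of a start in any list. Nor did any of 28 other genes with ERSE. With any matched promoter, 5 of 35 stress genes (14.3%) and 1.17% of the other genes had a standard peak within 1 kb. The genes with ERSE are few, and neither group was tested against these shares. The share of all 32851 promoters holding the letters was 0.895% for TGATGCAA, 5.20% for TGAGTCA, 1.79% for TGACGTCA, 0.119% for ERSE, 0.0365% for ERSE-II and 0.676% for TGACGTGG, the letters of the XBP1 element UPRE, which no promoter or peak of a stress gene held. A match or its absence describes these letters in these windows only.

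Both genes for the subunits that lead a phosphatase to eIF2 alpha, Ppp1r15a (GADD34, stress-induced) and Ppp1r15b (CReP, constitutive), had a promoter peak. At the Ppp1r15b promoter (chr1:135027318-135028134 with HDL) WT tags were 17.2, 20.3 and 12.3 in unstimulated, HDL and HDL + CpG cells, and KO tags 10.3, 7.42 and 4.21. Standard peaks were called on WT reads alone, and the same WT reads enter the ratio to KO, so the choice of peaks itself favours WT over KO in every ratio and binomial test given here. The ratios there were of 1.67 (exact 95% interval 1.18 to 2.35), 2.74 (1.89 to 4.00) and 2.93 (1.74 to 5.13), with an exact binomial test adjusted over all standard peaks (adjusted p = 0.00742, 1.56e-07 and 6.95e-05). The peak was in the KOIN-corrected list with HDL and with HDL + CpG and not in unstimulated cells. A second Ppp1r15b peak with HDL, 40.9 kb from the start on a TTAGGG simple repeat, had 8.44 WT and 3.78 KO tags (2.23, 1.28 to 3.92) and was also kept. Ppp1r15a had 1 peak, with HDL, centred 13 bp from the start (chr7:52781159-52782092). Its 12.7 WT and 4.39 KO tags gave a ratio of 2.88 (1.78 to 4.74, adjusted p = 1.48e-05, exact binomial test), and it was not in the KOIN-corrected list, while the Ppp1r15b promoter peak, at 2.74 in the same condition, was.

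Trib3, Chac1 and Nupr1 of the ATF4 branch had peaks at their starts with more WT than KO tags. Trib3, a pseudokinase that binds ATF4, had its peak in the first intron in unstimulated cells (chr2:152169040-152169993, intron 1 of 3) and in exon 1 of 4 with HDL (chr2:152169141-152170128, 5′ UTR), the pair overlapping. WT tags were 12.4 and 21.9 and KO tags 5.43 and 5.15. The ratio was 2.28 (1.47 to 3.57) in unstimulated cells, where the peak was not kept, and 4.25 (2.82 to 6.54, adjusted p = 9.67e-13, exact binomial test) with HDL, where it was. No Trib3 peak was called with HDL + CpG. Chac1, an enzyme that degrades glutathione, had a promoter peak with HDL only (chr2:119176301-119177080), of 11.6 WT and 4.09 KO tags (2.84, 1.72 to 4.77), and it was kept. Nupr1, a small stress-induced nuclear protein, had one with HDL + CpG only (chr7:133768807-133769512), of 10.3 WT and 4.00 KO tags (2.58, 1.5 to 4.62), also kept. Its start in the authors' annotation lay 144 bp from the nearest one in the reference annotation, while for the other promoter peaks the starts differed by at most 28 bp.

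Of the genes of protein folding and ER-associated degradation (ERAD), Herpud1 and Hspa5 had a peak within 10 kb of a start. Herpud1, a membrane protein that organises the ERAD machinery, had a promoter peak in all 3 conditions (chr8:96909573-96910558 with HDL). WT tags were 14.8, 24.8 and 7.88 in unstimulated, HDL and HDL + CpG cells and KO tags 6.75, 8.17 and 5.26. WT was highest with HDL and lowest with HDL + CpG, as was KO, which varied less. The peaks were 738, 986 and 688 bp wide in the same order of conditions, so the tags were counted over unlike bounds. With HDL the ratio was 3.03 (2.15 to 4.32) and the peak was kept. In unstimulated cells it was 2.19 (1.47 to 3.28, adjusted p = 0.000284, exact binomial test) and the peak was not kept, and with HDL + CpG it was 1.5 (0.884 to 2.58) and did not pass (adjusted p = 0.232, exact binomial test).

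Hspa5, the major ER chaperone BiP, had 1 intergenic peak 1.85 kb upstream of its start with HDL + CpG (chr2:34625316-34626211), with 12.7 WT and 5.68 KO tags (2.24, 1.41 to 3.66). It was kept by KOIN, and it is the peak with 2 copies of TGATGCAA shown above. Ero1l, the oxidase that renews disulphide bonds through the isomerases, had a peak in intron 13 of 15 in unstimulated and HDL cells, with ratios of 1.62 (1.04 to 2.52) and 1.95 (1.35 to 2.82), and neither was kept.

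**Figure D2:**
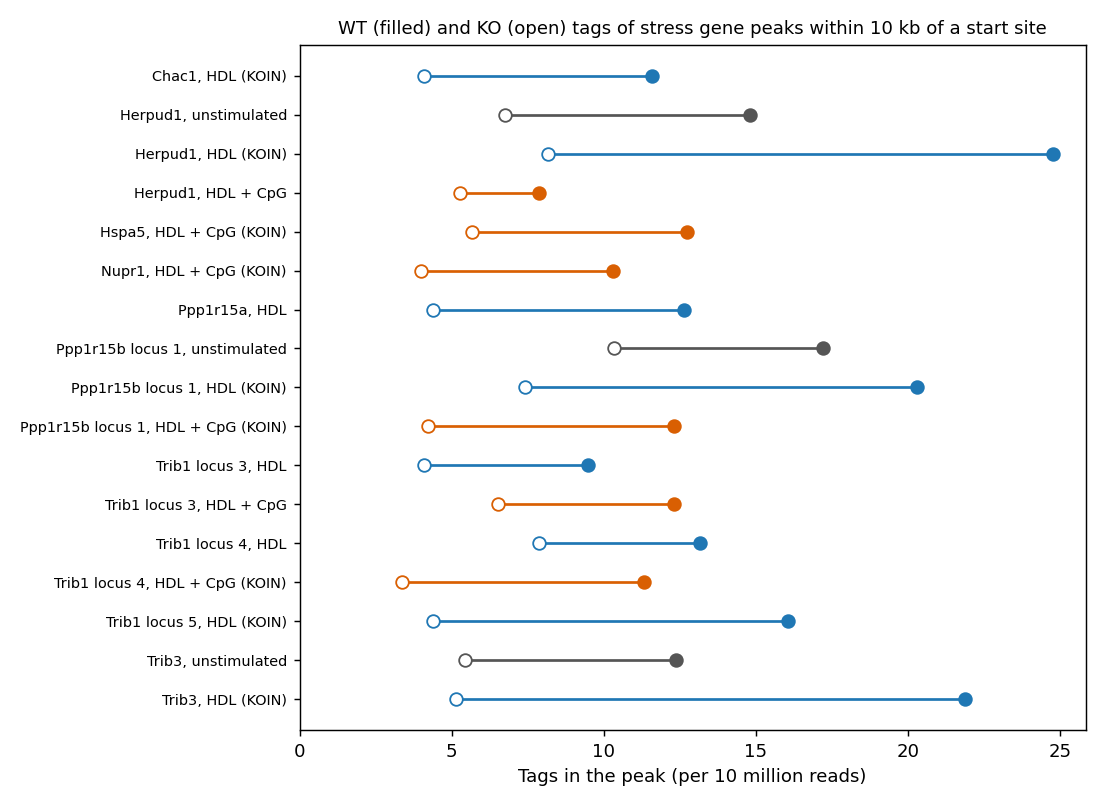
Tags per 10000000 reads in WT (filled) and KO (open) libraries for each standard peak of a stress gene within 10 kb of a start site, and for the KOIN-corrected Trib1 promoter peak with HDL + CpG, coloured by condition, with KOIN marking a KOIN-corrected peak. WT lies above KO in every pair shown, as it does for 94.3%, 97.3% and 85.6% of the other standard peaks within 10 kb (unstimulated, HDL, HDL + CpG), from 7.88 against 5.26 tags at Herpud1 with HDL + CpG to 24.8 against 8.17 at Herpud1 with HDL; loci of a gene are numbered along the chromosome.

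Trib1, a pseudokinase that directs the degradation of C/EBP factors and is needed for some tissue macrophages, was the only stress gene with a KOIN-corrected peak in all 3 conditions, but not at the same site. Its 5 loci spread over chr15:59383740-59482718, and the nearest start to all of them was that of Trib1. The outermost, 96.0 kb upstream in intron 4 of 6 of Nsmce2, was called with HDL only, with 15.8 WT and 3.18 KO tags (4.98, 2.98 to 8.61), and was kept. The next, in intron 6 of 6 of Nsmce2, was kept in unstimulated cells with 9.16 WT and 0.930 KO tags (chr15:59430182-59430775) and with HDL + CpG with 12.9 WT and 4.84 KO tags.

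The unstimulated ratio there, 9.88, was the highest of all stress gene peaks, but it rests on 34 WT and 7 KO reads its interval runs from 4.31 to 26.4, and with 1 tag added to both counts it was 5.26. A locus 6.11 kb upstream was not kept with HDL (9.49 and 4.09 tags, 2.32, 1.37 to 3.98) or HDL + CpG (12.3 and 6.53 tags, 1.89, 1.21 to 3.01). At the promoter, a standard peak with HDL had 13.2 WT and 7.87 KO tags (1.67, 1.11 to 2.52) and was not kept. A promoter peak with HDL + CpG was in the KOIN-corrected list without a standard counterpart, with 11.3 WT and 3.37 KO tags (3.36, 1.90 to 6.28). A peak in intron 1 of 2 of Trib1, 2.04 kb from the start, was called with HDL only and kept, with 16.1 WT and 4.39 KO tags (3.66, 2.32 to 5.91).

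The other stress genes with peaks had them far from a start. Sel1l, the ERAD adaptor that holds the ubiquitin ligase HRD1, was the nearest start to 6 loci between 545 and 1742 kb away on chromosome 12, each annotated on a repeat in at least one condition. One of them, on a TTAGGG simple repeat like telomeric DNA, had by far the most tags of any stress gene peak, with WT tags of 117, 142 and 85.1 and KO tags of 64.2, 49.8 and 82.7 in unstimulated, HDL and HDL + CpG cells. Its score was the highest among the stress genes, at 659, 666 and 545, and it was kept with HDL only. A locus 1150 kb away was likewise kept with HDL only (9.23 WT and 2.57 KO tags, 3.59, 1.96 to 6.83), and with HDL its centre was intergenic and not on a repeat. The lowest ratio of all stress gene peaks was also at Sel1l, 0.697 (0.460 to 1.04) with HDL at 1691 kb.

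Dnajb9 and Dnajc3, co-chaperones of BiP, and Edem1, which helps to extract misfolded glycoproteins, had distant standard peaks with ratios from 0.80 to 2.49 and no KOIN-corrected peak. The Edem1 peak lay 677 kb away on a ribosomal RNA repeat. The remaining 28 genes were nearest to no peak in any list. They include the sensor and kinase genes Ern1, Eif2ak2, Eif2ak3 and Eif2ak4, and the ER chaperones and isomerases Calr, Canx, Hsp90b1, Hyou1, Pdia3, Pdia4, Pdia6, Sdf2l1, Manf and Creld2. They also include Syvn1, Derl1, Derl2, Derl3, Os9 and Wfs1 of ERAD and the ER membrane, the amino acid and one-carbon enzymes Asns, Psat1, Phgdh, Shmt2 and Mthfd2, and the stress-induced Sesn2, Ddit4 and Stc2. The lists hold only peaks past a calling threshold, so occupancy below it was not measured.

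**Figure D3:**
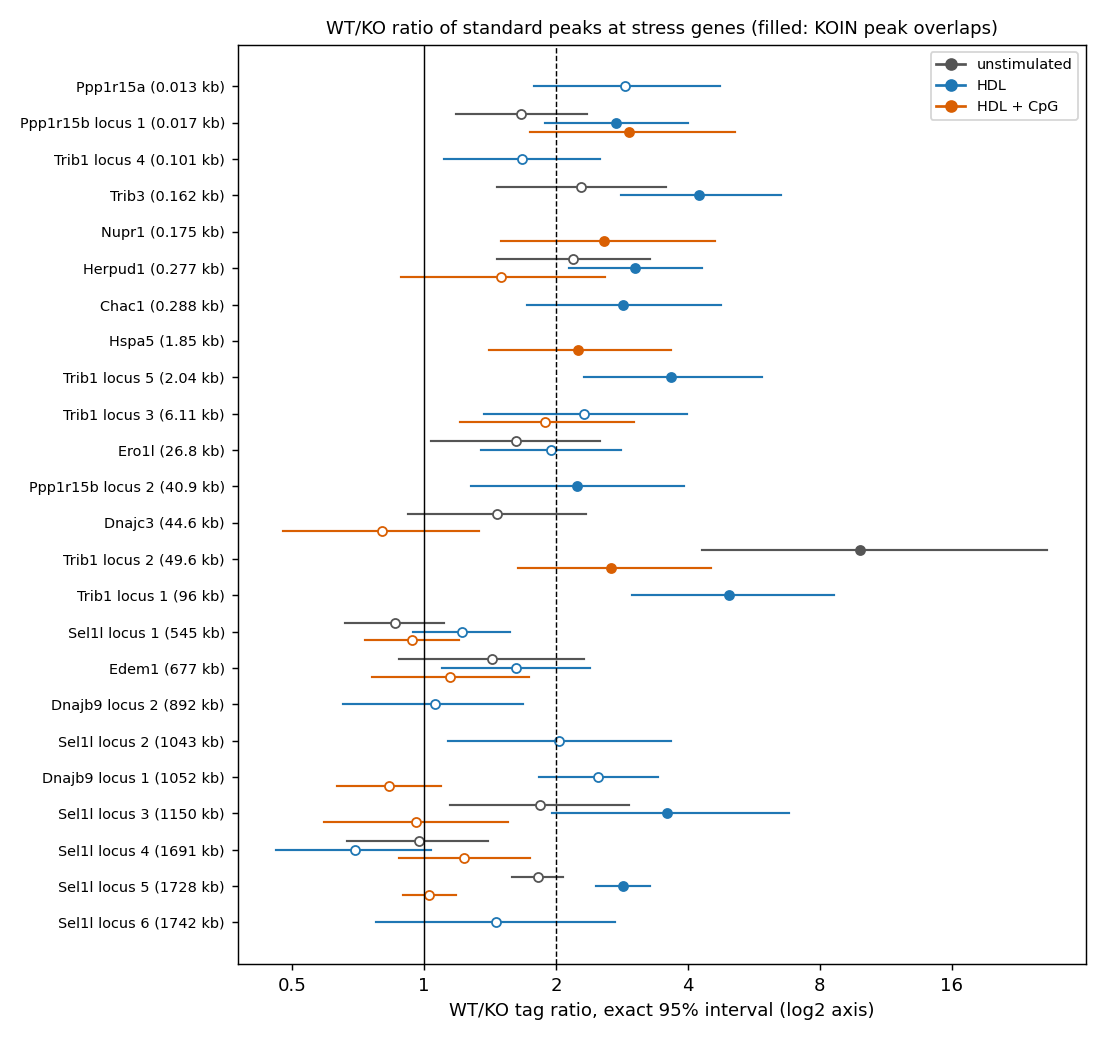
WT/KO tag ratio (log2 axis) with its exact 95% interval for the 44 standard peaks of stress genes, ordered by distance from the start site in kb, coloured by condition and filled where a KOIN-corrected peak overlaps. Ratios run from 0.697 at Sel1l to 9.88 at Trib1, the solid line marks 1 and the dashed line the threshold of 2 used by the authors.

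For stress genes, as for the others, KOIN retained the largest share of genes and peaks with HDL and the smallest in unstimulated cells. In unstimulated cells 1 of 8 stress genes with a standard peak had a KOIN-corrected peak (25.0% of 2208 other genes), with HDL 6 of 10 (63.0% of 3864), and with HDL + CpG 4 of 9 (34.9% of 2879). By peak, 1 of 11, 9 of 20 and 4 of 13 standard peaks were kept, beside 20.7%, 54.9% and 29.7% of all other peaks. At promoters 0 of 2, 3 of 5 and 2 of 3 were kept, beside 48.8%, 63.7% and 56.3%. By gene the stress genes lay below the others in unstimulated and HDL cells and above them with HDL + CpG. The shares were not tested, and with 8 to 10 stress genes a single gene moves them by 10 percentage points or more. KO library depth differed between conditions, and its part in these shares was not tested.

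**Figure D4:**
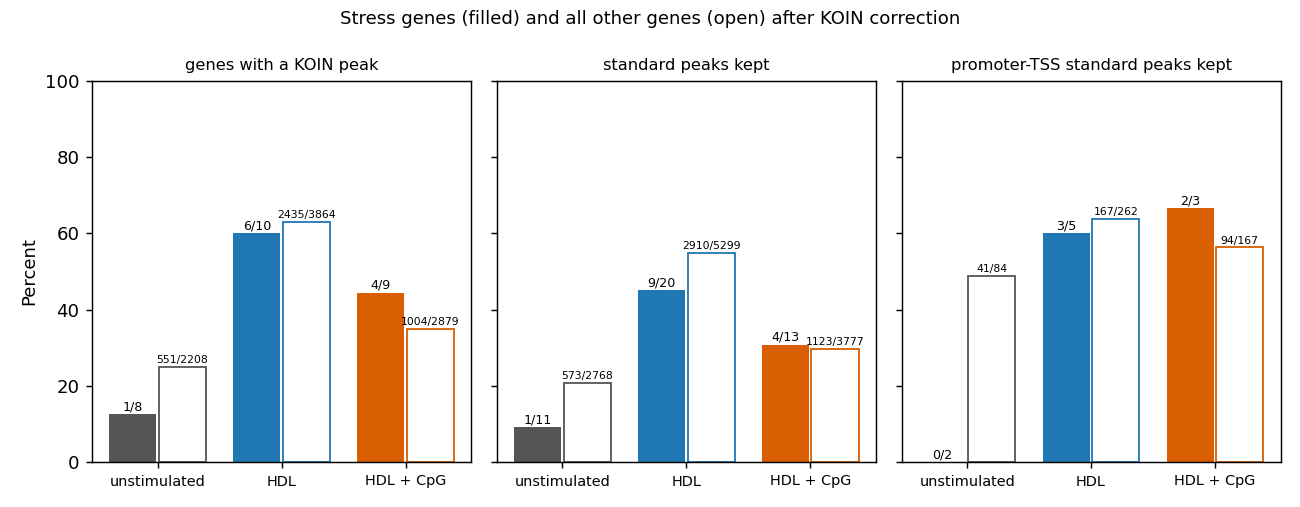
Percent of genes with a KOIN-corrected peak, of standard peaks kept and of promoter peaks kept for stress genes (filled) and all other genes (open) in each condition, with counts above the bars. With HDL 6 of 10 stress genes and 63.0% of other genes had a KOIN-corrected peak.

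Tag counts at the stress genes also followed the background of their condition. More WT than KO reads passed the exact binomial test at 6 of 11, 16 of 20 and 5 of 13 standard peaks of stress genes, beside 56.2%, 79.5% and 40.9% of the others, and a ratio of at least 2 was reached by 3 of 11, 13 of 20 and 4 of 13, beside 31.3%, 66.6% and 34.7%. The median ratio was 1.67, 2.41 and 1.23 at stress genes and 1.66, 2.41 and 1.42 at the other peaks. Of the 20 stress gene peaks with a ratio of at least 2, 6 were not kept, at Herpud1 and Trib3 in unstimulated cells and at Ppp1r15a, Trib1, Dnajb9 and Sel1l with HDL. Among all other peaks with such a ratio 1102 of 5708 (19.3%) were not kept. Which of the other KOIN steps left them out could not be read from the lists.

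Between conditions the comparison was made at overlapping standard peaks, 9 pairs of stress gene peaks each time, with an exact conditional test of the ratio of WT/KO ratios adjusted over all overlapping pairs. The 3 comparisons share libraries, and the peaks of a pair were counted within unlike bounds. None of the peaks within 10 kb of a start passed. HDL against unstimulated gave 1 stress gene peak higher (19.1% of 2011 pairs) and 0 lower (2.59%), HDL + CpG against HDL gave 0 higher (2.72% of 2394) and 3 lower (33.1%), and HDL + CpG against unstimulated gave 0 higher (2.52% of 1749) and 2 lower (25.1%). The median ratio of ratios was 1.42, 0.708 and 0.683 at stress gene peaks and 1.26, 0.709 and 0.760 over all pairs.

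Of the peaks near starts, Trib3 with HDL against unstimulated had a ratio of ratios of 1.86 (1.00 to 3.47, adjusted p = 0.135, exact conditional test) and Ppp1r15b 1.64 (0.979 to 2.75, adjusted p = 0.161, exact conditional test). Herpud1 with HDL + CpG against HDL was at 0.494 (0.260 to 0.95), which missed the threshold after adjustment (adjusted p = 0.0626, exact conditional test), whereas Ppp1r15b was at 1.07 (0.554 to 2.10, adjusted p = 0.945, exact conditional test). The peaks that passed were distant ones of Sel1l and Dnajb9 and the Trib1 peak in the last intron of Nsmce2.

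Other genes of these pathways, from a list of 92, were in 29 cases nearest to a peak. Of those with a standard peak, 5 of 17, 16 of 26 and 10 of 16 had a KOIN-corrected one (unstimulated, HDL, HDL + CpG), beside 25.0%, 63.0% and 34.9% of the genes other than the 41. Of its 12 genes for aminoacyl-tRNA synthetases, which charge tRNAs with their amino acids, 4, 6 and 3 had a standard peak within 1 kb of a start, and 3, 3 and 3 of these also a KOIN-corrected one, beside 47.5%, 64.4% and 55.1% of the genes other than the 41. Aars had 14.8 WT and 3.63 KO tags with HDL (4.06, 2.48 to 6.86), Yars 20.6 and 4.39 (4.68, 3.02 to 7.44), and both were also kept in unstimulated cells. Iars was kept at its promoter in unstimulated cells (2.58, 1.55 to 4.31) and with HDL + CpG (3.22, 1.74 to 6.34), and Cars (3.58, 1.81 to 7.72) and Mars (2.61, 1.5 to 4.77) with HDL + CpG. Cars was also kept with HDL, in intron 1 of 22 and 0.141 kb from its start (3.81, 2.05 to 7.37). Not kept were peaks at the starts of Eprs (2.19, 1.33 to 3.63), Iars (1.4, 0.905 to 2.15) and Mars (1.82, 1.18 to 2.80) with HDL and of Mars in unstimulated cells (1.92, 1.30 to 2.85).

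Further promoters kept were those of Aldh18a1, an enzyme of proline synthesis, with HDL (2.66, 1.39 to 5.23), of Man1b1, a mannosidase that marks glycoproteins for ERAD, with HDL (3.21, 1.79 to 5.94), and of Ddit3, which encodes CHOP, with HDL + CpG (16.4 WT and 4.21 KO tags). The Ddit3 promoter peaks in unstimulated cells (1.48, 1.03 to 2.14) and with HDL (1.42, 0.988 to 2.04) were not kept. TGATGCAA was in KOIN-corrected peaks of Aars, Yars, Iars, Cars, Mars, Ddit3, Slc7a5 and Creb3l1, and in peaks of Eprs and Pycr1 that were not kept. It was in 3 of 5, 4 of 16 and 6 of 10 KOIN-corrected peaks of this list (unstimulated, HDL, HDL + CpG). Among the KOIN-corrected peaks of all genes other than the 41 the shares were 8.25%, 6.00% and 5.46%. The highest-scoring KOIN-corrected peaks elsewhere were those of Edem3 with HDL + CpG (3.59, 2.24 to 5.96), and, with HDL, of the amino acid transporter gene Slc7a5 (2.80, 1.98 to 3.98), of Trib2 (2.98, 1.88 to 4.80) and of the cargo receptor gene Lman1 (2.02, 1.47 to 2.80). These peaks lay 68.5, 9.19, 86.9 and 88.9 kb from a start in the same order. With HDL + CpG the Slc7a5 site was also kept (2.67, 1.64 to 4.51). The Trib2 site (0.516, 0.317 to 0.824) and the Lman1 site (0.826, 0.618 to 1.10) were not kept there.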

How the data were processed

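ATF3 ChIP-seq peaks were analysed from the 6 deposited lists (standard and KOIN-corrected, per condition), and samples were grouped by the submitters' labels. The authors used Bowtie for alignment to mm9, MACS for peak calling and HOMER for annotation. Per the submitters' notes, versions were MACS 1.4.2, HOMER 4.3, Bowtie 0.12.8 and CASAVA 1.8. The deposited peak score is that of MACS. The deposited signal is the tag count in the peak, which the authors scaled to 10000000 reads. All values lay within 0.005 tags of whole reads, so reads were recovered with the library totals in the file headers. Each list also has a column of the authors' WT/KO fold changes, which was not used.

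From the reads, WT/KO ratios were computed with exact (Clopper-Pearson) 95% intervals and a two-sided exact binomial test, adjusted by Benjamini-Hochberg over all standard peaks of a condition, with a threshold of 0.05. Ratios were compared between conditions at standard peaks overlapping by at least 1 bp with a two-sided exact conditional test (non-central hypergeometric), adjusted over all such pairs. A standard peak counted as kept when a KOIN-corrected peak overlapped it, and a gene when any KOIN-corrected peak carried its name. The tests were tested on simulated reads at fixed peaks, which leaves out the choice of peaks on WT reads. Reads are PCR products without molecular identifiers, so intervals cover counting error only.

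All 16759 peaks lay inside the chromosomes of NCBIM37, the assembly of mm9. Letters were searched in either direction, in whole peaks and in windows of 100 bp to each side of the peak centre. Stretches that run into an annotated exon were shortened. Full values are given for genes with a KOIN-corrected peak or a standard peak within 10 kb of a start, and the rest by range with the highest score and lowest ratio. Of the other pathway genes, those with a KOIN-corrected promoter peak and the 4 highest-scoring others are named. Genes and lists were chosen with earlier results of these data known. Alternatives were score minimums of 60 and 100, limits of 10 and 100 kb, no repeats, an overlap of 50%, the binomial test or a ratio of 2 in place of the KOIN list, a pseudocount of 1 tag in place of 0, and a window of 50 bp. Python 3.11.15, numpy 2.4.6, pandas 2.3.3, scipy 1.17.1 and matplotlib 3.10.9 were used. The barcode list and raw reads were not used here.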

Additional observations from a re-analysis of the deposited data

Results flagged for a closer look

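The WT/KO ratio of 4 stress gene loci differed between conditions by the exact conditional test adjusted over all overlapping peaks. Dnajb9, 1052 kb from its start and with HDL on a repeat, fell with HDL + CpG to 0.334 of its ratio with HDL (0.219 to 0.508, adjusted p = 8.72e-07, exact test): WT tags were 27.2 with HDL and 20.8 with HDL + CpG, while KO tags were 10.9 and 25.1. The Dnajb9 peak was 385 bp wide with HDL and 975 bp wide with HDL + CpG, so these tags cover unlike stretches. At the Sel1l locus 1150 kb away the ratio with HDL + CpG was 0.268 of that with HDL (0.119 to 0.594, adjusted p = 0.00211, exact test), with KO tags of 7.79 against 2.57.

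At the TTAGGG repeat assigned to Sel1l the ratio with HDL was 1.57 times that in unstimulated cells (1.29 to 1.90, adjusted p = 4.39e-05, exact test). With HDL + CpG it was 0.362 of that with HDL (0.297 to 0.442, adjusted p = 3.03e-23, exact test) and 0.567 of that in unstimulated cells (0.467 to 0.687, adjusted p = 9.71e-08, exact test). KO tags there moved in the opposite direction to WT tags over the 3 conditions. At the Trib1 peak in the last intron of Nsmce2 the ratio with HDL + CpG was 0.270 of the unstimulated one (0.0891 to 0.740, adjusted p = 0.0225, exact test). WT tags were 12.9 with HDL + CpG and 9.16 in unstimulated cells, and KO tags 4.84 and 0.930, the last of these resting on 7 reads. The Trib1 peaks compared were 820 bp wide with HDL + CpG and 594 bp wide in unstimulated cells. The part of KO library depth, of repeat mapping or of peak bounds in these differences was not tested.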

How the results depend on the processing

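The number of stress genes and peaks retained depended on the score and on the call, as did the share of all others. In unstimulated cells the 1 of 8 genes and 1 of 11 peaks kept became 0 of 4 and 0 of 6 with a score of at least 60 (9.61% of other genes and 8.27% of other peaks), 0 of 1 and 0 of 2 with a score of at least 100 (1.06% and 0.799%) and 0 of 3 and 0 of 3 within 10 kb of a start (32.0% and 31.6%). With the exact binomial test in place of the KOIN list they became 5 of 8 and 6 of 11 (63.9% and 56.2%), and with a ratio of at least 2 they became 3 of 8 and 3 of 11 (37.1% and 31.3%). With HDL the 6 of 10 genes and 9 of 20 peaks became 2 of 3 and 2 of 4 with a score of at least 100 (23.0% and 20.5%) and 10 of 10 and 16 of 20 with the binomial test (84.9% and 79.5%), and 5 of 8 peaks were kept within 10 kb (59.8%). With HDL + CpG the 4 of 9 genes and 4 of 13 peaks became 1 of 6 and 1 of 8 with a score of at least 60 (22.4% and 19.5%) and 0 of 2 and 0 of 4 with at least 100 (6.05% and 5.31%). A stricter score or distance leaves fewer peaks by construction. Leaving out repeats, limiting to 100 kb and an overlap of 50% moved none of these counts by over 1.5 times, nor did leaving out Sel1l (chosen after seeing the data) for the counts of peaks. A pseudocount of 1 tag moved none of the 44 ratios out of its interval, and moved the unstimulated Trib1 ratio from 9.88 to 5.26. The whole-peak letter search was also chosen after seeing the data, and gave 3, 6 and 4 stress gene peaks with TGAGTCA, TGACGTCA or TGATGCAA in place of 2, 4 and 3. No paired analysis was possible because each group is 1 pooled library without a replicate number, and no replicate could be left out. With medians of 43 to 53 WT reads per peak, a ratio such as 2.24 at Hspa5 has an interval of 1.41 to 3.66, and nothing here measures variation between mice.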
